A study of Sus scrofa with 22 samples.

Results

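Transcripts of caspase-1 (CASP1), interleukin-18 (IL18) and interleukin-1 alpha (IL1A) were followed in mononuclear cells of mini pig blood on 22 Affymetrix arrays. The members were all probe sets that the array's annotation assigned to exactly 1 of these 3 symbols. They numbered 4 of 23999 probe sets and 3 of the 6765 genes with such a probe set: 1 for CASP1 (Ssc_16012_1_S1_at, Entrez gene 397319), 1 for IL18 (Ssc_20_1_S1_at, 397057) and 2 for IL1A (Ssc_113_1_S1_at and Ssc_113_1_S2_at, 397094). All 4 passed the filter on low values, a log2 intensity above 5 on at least 2 arrays. The study asked what a fatty diet, and resveratrol given with it, do to gene expression in these cells in each sex. At time 0, before the diets, 5 females and 5 males were sampled. After 9 months, 2 females and 2 males were sampled on each of 3 diets: control chow with 5% beef tallow, high-fat chow with 20% beef tallow, and that fatty chow with a daily resveratrol dose of 8 mg/kg body weight. Each array held the cells of 1 pig, the labels name no genotype, and the ages of the animals are not given in the sources used here. Female 8 and male 25 were sampled at time 0 and again at 9 months on control chow, so the 22 arrays came from 20 pigs.

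Caspase-1 is the protease of the inflammasome, a complex that monocytes and other myeloid cells assemble when a sensor protein detects infection or damage. It cuts the precursor of interleukin-18 into the active cytokine, which acts on T cells and NK cells and prompts them to make interferon-gamma. Interleukin-1 alpha signals through the type 1 interleukin-1 receptor, is active without caspase-1, and is induced when monocytes are activated. Caspase-1 activity and cytokine release are set largely at the protein level, and the arrays measured transcripts alone.

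The arrays carried the transcripts of the labelled cells: the T cell gene CD3E ranged from 11.25 to 12.28 in log2 intensity, the B cell gene CD79B from 8.82 to 10.62 and the monocyte gene CD14 from 7.83 to 9.90. Genes of other blood cells were measured too. Of S100A8 and its partner S100A9, granulocyte genes that monocytes also express, the first was dim, at 4.36 to 5.64, and the second was at 7.15 to 10.04. The red cell gene HBB was at 8.09 to 9.59 and the platelet gene PPBP at 4.97 to 11.02. Poly-A spike-in controls, added to RNA before labelling, stood at levels that parted the arrays into 4 sets, which the labels do not explain: A (2 females of time 0), B (the other 8 of time 0), C (7 of 9 months) and D (5 of 9 months). Time and set therefore cannot be told apart. In bulk cells, a lower value can stand for fewer cells of a type or for less RNA per cell, and these cannot be told apart either. The members were among the more variable probe sets: the SD over 22 arrays exceeded that of 98.5% of the 17240 probe sets tested for CASP1, 93.6% for IL18, and 98.6% and 98.1% for the 2 of IL1A.

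CASP1 differed between the sexes at 9 months, and its average difference at time 0 had the opposite sign. At time 0 females averaged higher, short of the threshold. At 9 months males were higher past it, with the gap found in pigs on both high-fat chows and not shown on control chow. The difference between these sex differences passed the test. No member passed in any comparison of diets.

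At time 0 the log2 intensity of CASP1 was 11.02, 11.27, 11.44, 11.52 and 11.21 in females 6, 8, 10, 17 and 20. It was 9.86, 9.81, 10.22, 11.47 and 10.47 in males 11, 12, 15, 24 and 25. Male 24 lay within the female range and the other 4 males below every female. Females averaged 11.29 ± 0.20 and males 10.37 ± 0.67 (SD, n = 5 each). Females thus stood 0.93 higher (SE 0.24), or 1.90-fold, which missed the threshold (adjusted p = 0.0721). Of all probe sets, 1.07% passed here and 0 of the 4 members did. In this limma fit, 3 of the 4 member probe sets and 16.4% of all probe sets had an unadjusted p under 0.05. They were CASP1, higher in females, and the 2 probe sets of IL1A, which ran together (r 0.987) and were lower in females. Leaving out 1 array at a time, the CASP1 difference ran from 0.79 to 1.20 and passed in 1 of 10 fits. That was the fit without male 24 (1.20, adjusted p = 0.0021). Females and males then did not overlap, as for 5.34% of all probe sets. Male 24 was the only male within the female range of CASP1, so this lack of overlap was fixed by leaving it out. The share over all probe sets is therefore no like comparison. The mean of 13 interferon-regulated genes was also higher in male 24, at 9.94, than in the other males, at 9.04 to 9.19, and its monocyte marker mean was the highest of the males, at 9.85 against 9.36 to 9.71; the part of either in its CASP1 value was not tested.

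At 9 months CASP1 was lowest in females on the high-fat chows. It was 10.80 and 9.96 in control females 18 and 8, and 10.33 and 10.73 in control males 16 and 25, so the sexes overlapped. On high-fat chow it was 9.38 and 9.28 in females 27 and 30, and 11.08 and 11.11 in males 23 and 26. With resveratrol it was 9.18 and 9.51 in females 21 and 22, and 11.15 and 11.54 in males 4 and 5. All 4 females on the high-fat chows lay below all other arrays of the series, and all 4 males on them lay above the other arrays of 9 months. Over the 3 diets, females were lower by 1.30 on the log2 scale (-1.30, SE 0.22, adjusted p = 0.00379), a 2.47-fold difference. CASP1 was the 1 member that passed, where 6.01% of all probe sets did, 2.94% as lower in females. The difference passed without any 1 of the 12 arrays (-1.45 to -1.16).

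**Figure D1:**
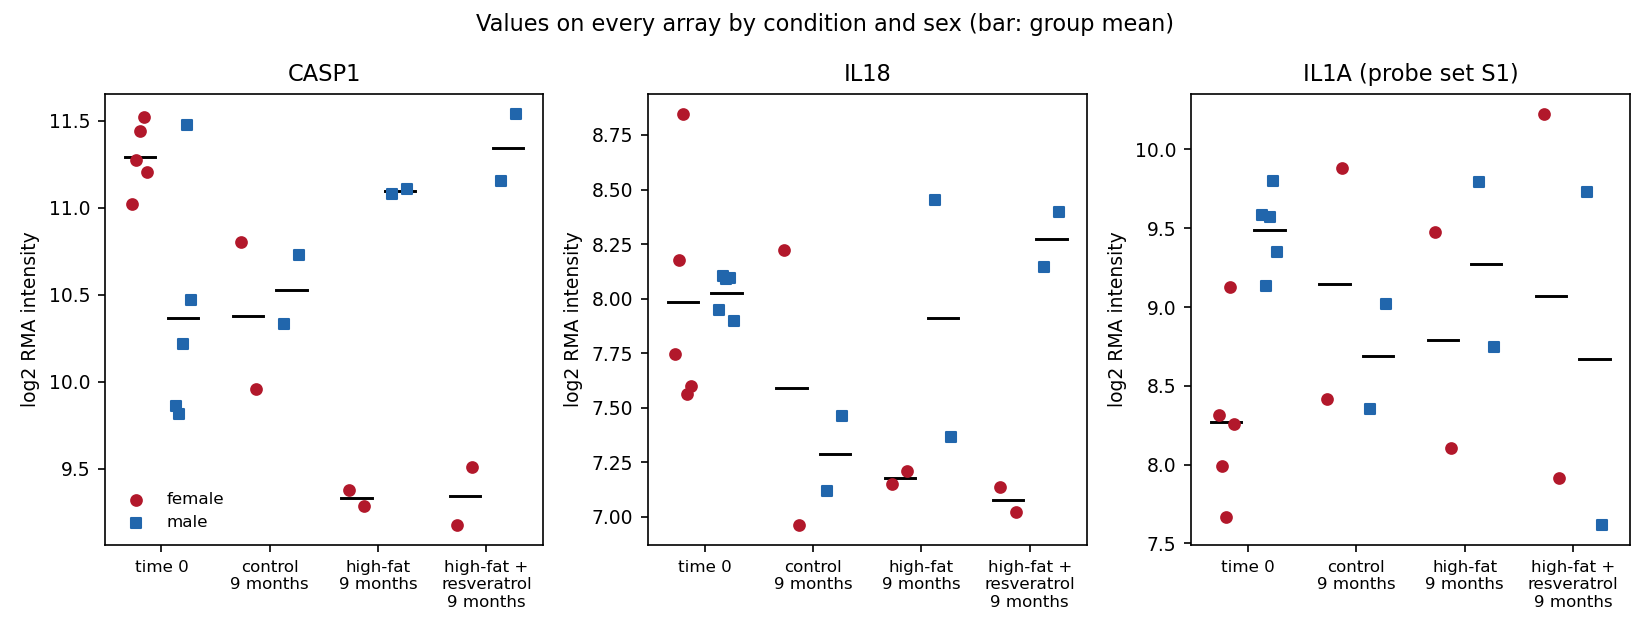
Log2 RMA intensity (y axis) of CASP1, IL18 and 1 IL1A probe set on each of the 22 arrays by condition (x axis), females as red circles, males as blue squares, group means as bars. In CASP1 the 4 females on the high-fat chows sit between 9.18 and 9.51, below the 4 males there at 11.08 to 11.54, while in IL1A the sexes overlap at 9 months.

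Within diets, as comparisons chosen after the values were seen, the CASP1 sex difference was -0.15 on control chow (SE 0.39, adjusted p = 0.952, 95% interval -0.96 to 0.66), with 2 pigs of each sex, where 0.0928% of all probe sets passed. It was -1.76 on high-fat chow (SE 0.39, adjusted p = 0.153), where 0.0928% passed, and -2.00 with resveratrol (SE 0.39, adjusted p = 0.00592), where 9.98% passed. Over both high-fat chows it was -1.88 (SE 0.27, adjusted p = 0.000713), where 5.89% of all probe sets passed as lower in females. Females were thus 3.69-fold lower there, and females and males did not overlap, as for 19.3% of all probe sets. The gap was present within each spike-in set: on the high-fat chows, set D held females at 9.18 to 9.38 and 1 male at 11.11, and set C held 1 female at 9.51 and males at 11.08 to 11.54. Over all diets, the difference was -0.93 within set C (adjusted p = 0.572) and -1.64 within set D (adjusted p = 0.0112). These 2 fits had no term for diet, and the diets were not balanced between the sexes within a set. In set D the females were all on high-fat chows and 1 male was on control chow, so sex and diet are mixed there.

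Subtracting the 9-month sex difference from that of time 0 gave 2.23 for CASP1 (SE 0.33, adjusted p = 0.00254, 95% interval 1.54 to 2.92), a ratio of 4.69. It was 1 of 4 members to pass, where 7.34% of all probe sets did. A larger positive value was found in 6 of 17240 probe sets, and by the brightest probe set of each gene in 3 of 5906 genes. CASP1 was chosen with earlier results of these data known, so its rank is a description and no independent support. The change in the CASP1 sex difference passed without any 1 of the 22 arrays, at 2.09 to 2.51. The pigs of the 2 times are different animals except for 2, and the change in sex difference combines time, diet and animals. The difference between the sexes on the high-fat chows less that on control chow was -1.73 (SE 0.47, adjusted p = 0.133), so a diet effect on the sex difference was not shown by itself.

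**Figure D2:**
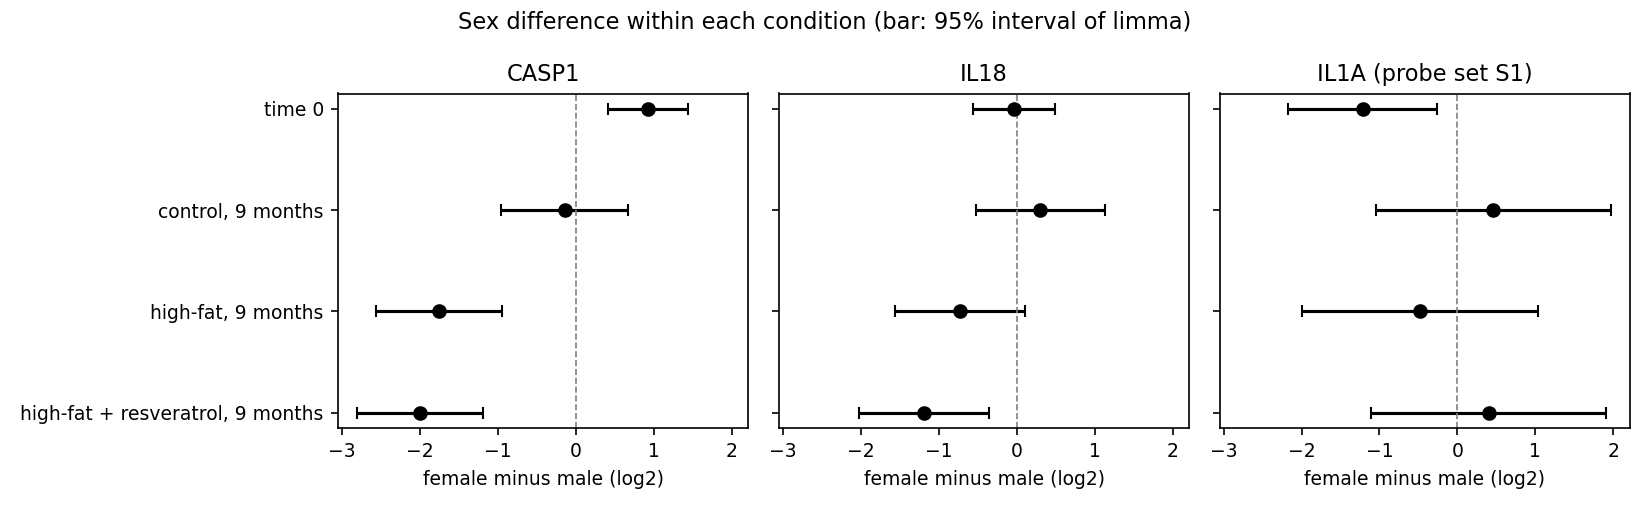
Female minus male difference in log2 intensity (x axis) of CASP1, IL18 and IL1A within each condition (y axis), points with 95% intervals of the limma fit. The CASP1 difference is 0.93 at time 0, -0.15 on control chow, -1.76 on high-fat chow and -2.00 with resveratrol, while the IL1A intervals at 9 months all include 0.

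The sex difference of other inflammasome genes also changed between the times. Of a list of 34 such genes, 6 were measured, and in the change of the sex difference 5 of these passed, all toward females at time 0, where 3.89% of all probe sets passed in that direction. Beside CASP1 they were TXNIP, a thioredoxin inhibitor that binds an inflammasome sensor (1.03, adjusted p = 0.00836), the initiator caspase CASP8 (0.59, adjusted p = 0.0204), the co-chaperone SUGT1 (0.67, adjusted p = 0.0347) and GSDMD, the pore protein that caspase-1 cuts (0.44, adjusted p = 0.0347). BRCC3, a deubiquitinase, gave 0.03 (adjusted p = 0.91), and the median of the 6 was 0.63. At 9 months females were lower for TXNIP (-0.61, adjusted p = 0.016), with 12.03 ± 0.36 in females and 12.83 ± 0.19 in males on high-fat chow (SD, n = 2 each). At time 0 females were higher for SUGT1 (0.60, adjusted p = 0.0428). Elsewhere on the pathway lists, females at 9 months were higher for FADD, the adaptor of death receptors (0.52, adjusted p = 0.017), and IRF8 (0.44, adjusted p = 0.0386), and lower for MX1 (-1.04, adjusted p = 0.0285). The count of 5 fell to 3 without time 0 female 6, time 0 male 12 or 25, control female 8, high-fat female 27 or resveratrol female 22, with array weights or with the spike-in set as a block. CASP1 was among those that passed in every one of these fits.

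Of 13 interferon-regulated genes measured, chosen because CASP1 is itself an interferon-regulated gene, 5 passed in the same direction and 1 in the other. Those with positive values were the antiviral genes OAS1 (4.40, SE 0.96), MX1 (2.03, SE 0.39), IFIT3 (1.89, SE 0.51) and MX2 (1.68, SE 0.42), and the signal transducer STAT2 (0.67, SE 0.20), and IRF8, a myeloid and B cell regulator, was negative (-0.61, adjusted p = 0.0472). OAS1, IFIT3, MX2 and STAT2 are named after their values were seen. OAS1 averaged 9.26 ± 0.62 in females and 7.09 ± 1.53 in males at time 0 (SD, n = 5 each), and 5.25 ± 0.38 and 8.91 ± 0.70 on high-fat chow (SD, n = 2 each). The positive count was 7 without time 0 male 24, control female 18 or control male 16. It was 3 without time 0 female 8 or 10, time 0 male 11, 12 or 15, control female 8, high-fat female 27, high-fat male 23, resveratrol female 21 or 22, or resveratrol male 5, and 2 with the spike-in set as a block. The mean of the 13 genes was 8.84 to 9.06 in females and 9.63 to 10.08 in males on the high-fat chows, without overlap. Of single probe sets, 19.3% did not overlap there either. On control chow the mean was 9.95 and 8.72 in females 18 and 8, and 9.03 and 9.21 in males 16 and 25, so the sexes overlapped.

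**Figure D3:**
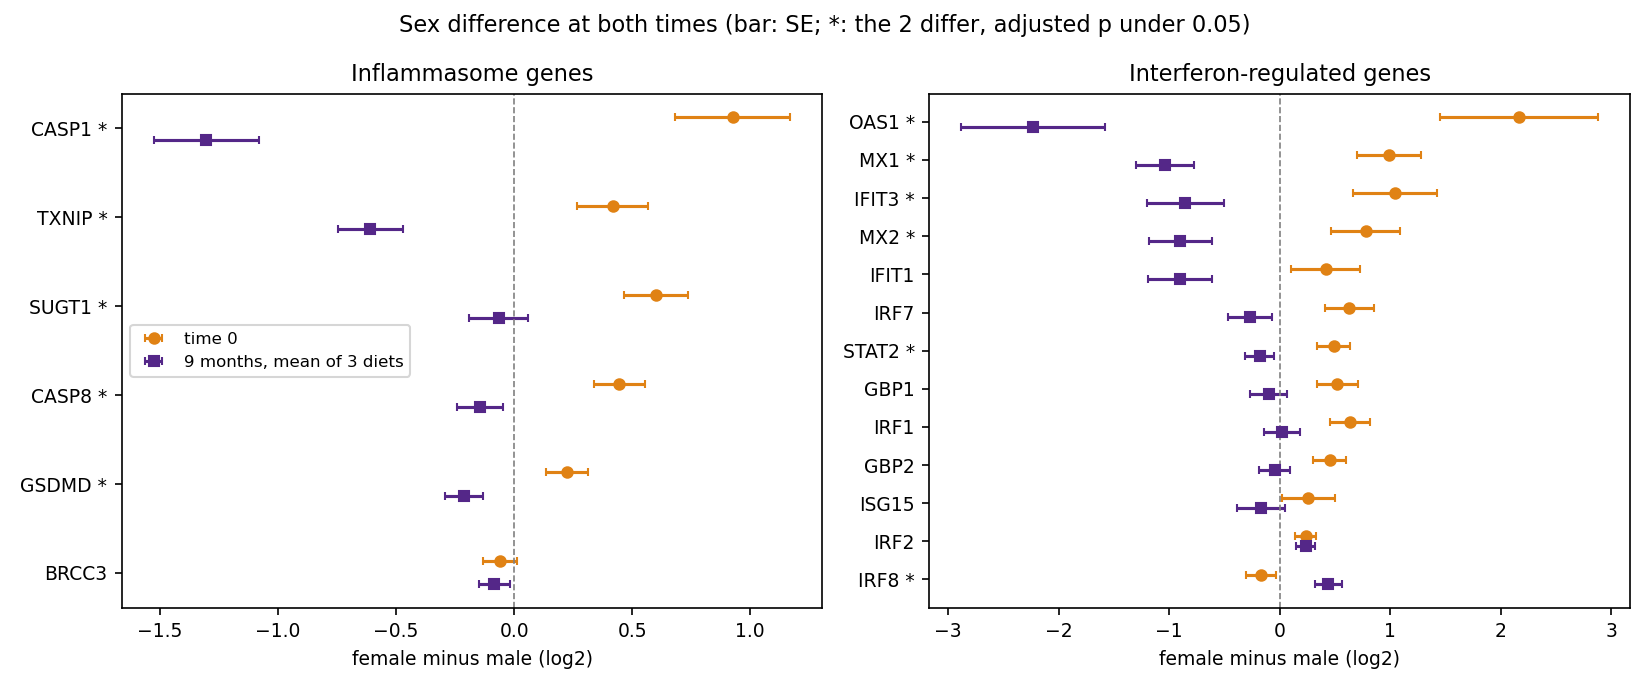
Female minus male difference in log2 intensity (x axis) of 6 inflammasome and 13 interferon-regulated genes (y axis) at time 0 (orange circles) and at 9 months over the 3 diets (purple squares), with standard errors; a star marks genes whose sex differences at the 2 times differed at an adjusted p under 0.05. CASP1 lies at 0.93 and -1.30, and OAS1 at 2.17 and -2.23.

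Markers of monocytes, the cells of blood in which CASP1 is abundant, also differed between the sexes on the high-fat chows. The mean of 13 measured monocyte and dendritic cell markers, of 18 listed, was 9.19 to 9.37 in the 4 females and 9.61 to 10.10 in the 4 males on the high-fat chows. It was 9.78 to 10.16 on control chow, 9.43 to 10.07 in females at time 0 and 9.36 to 9.85 in males at time 0, so the sexes overlapped at time 0. Among males the marker mean and CASP1 did not order the diets alike. Control males averaged 10.03 in the marker mean and 10.53 in CASP1, and high-fat males 9.71 and 11.09 (n = 2 each). Resveratrol males were highest in both, at 10.08 and 11.34 (n = 2). Over the 3 diets, 12 of the 13 markers were lower in females, as were 7791 of all 17240 probe sets. Of the markers 5 passed, where 2.94% of all probe sets passed as lower: VCAN (-1.31), FCGR1A (-0.96), FCN1 (-0.75), TYROBP (-0.70) and AIF1 (-0.61). CD14 gave -0.57 (adjusted p = 0.126). With the monocyte mean as a covariate, the CASP1 difference at 9 months was -0.64 (adjusted p = 0.39), where 21 of 17240 probe sets passed in place of 1036. The change in sex difference was 1.36 (adjusted p = 0.073). In that fit 0 of the 6 inflammasome genes and 0 of the 13 interferon-regulated genes passed in the change of the sex difference, and 116 of 17240 probe sets did in place of 1265.

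Other blood cell markers also differed between the sexes at 9 months. The 4 red cell genes averaged 8.14 to 8.43 in females and 9.83 to 10.59 in males on the high-fat chows, and 3 of the 4 were called lower in females over the 3 diets. All 6 granulocyte genes measured were lower in females, of which 2 passed, and 7 of 8 T cell genes were higher, of which 1 passed. B cell CD79B was higher in females (0.97). Over all 17240 probe sets, 7791 were lower in females, of which 506 passed, and 9449 were higher, of which 530 passed. The part of these cells in the CASP1 difference was not tested.

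**Figure D4:**
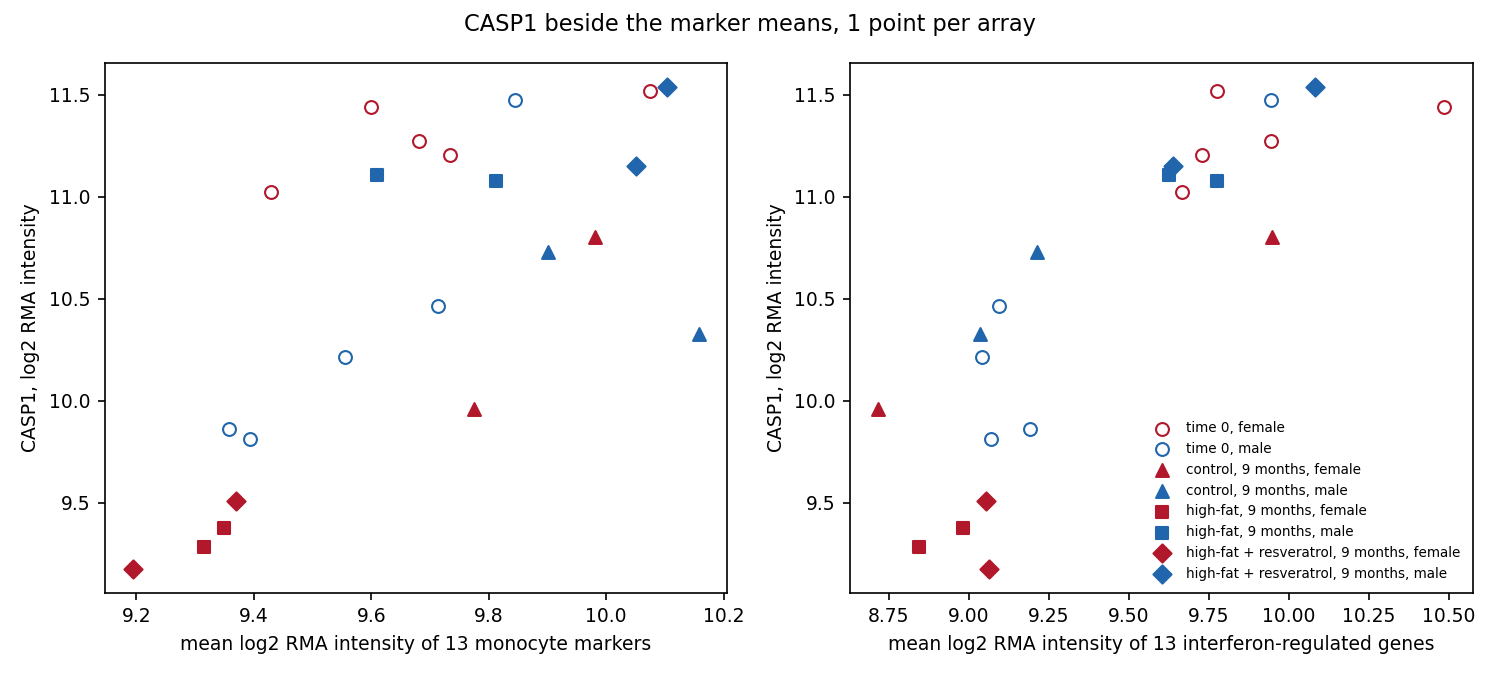
CASP1 log2 intensity (y axis) beside the mean log2 intensity of 13 monocyte markers (left, x axis) and of 13 interferon-regulated genes (right, x axis), 1 point per array, females red, males blue, time 0 as open circles, control chow as triangles, high-fat chow as squares and resveratrol as diamonds. The 4 females on the high-fat chows lie lowest in CASP1 in both panels, with monocyte means of 9.19 to 9.37.

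IL18, the cytokine that caspase-1 activates, showed no sex difference past the threshold at time 0, and at 9 months its values were lower in females on the high-fat chows. At time 0 it was 7.75, 8.18, 8.85, 7.56 and 7.60 in females 6, 8, 10, 17 and 20, and 7.95, 8.11, 8.09, 8.10 and 7.90 in males 11, 12, 15, 24 and 25. The males lay close together within the range of the females. The difference was -0.04 (SE 0.25, adjusted p = 0.959, 95% interval -0.57 to 0.48).

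At 9 months IL18 was 8.22 and 6.96 in control females 18 and 8, and 7.12 and 7.46 in control males 16 and 25. On high-fat chow it was 7.15 and 7.21 in females 27 and 30, and 8.45 and 7.36 in males 23 and 26. With resveratrol it was 7.13 and 7.02 in females 21 and 22, and 8.14 and 8.40 in males 4 and 5. The 4 females on the high-fat chows, at 7.02 to 7.21, lay below the 4 males there, at 7.36 to 8.45, a lack of overlap that 19.3% of all probe sets shared, and the control pigs spanned most of both ranges. Over the 3 diets the female minus male difference was -0.54 (SE 0.23, adjusted p = 0.173). Without control female 18 it was -0.75. That female also had the highest mean of interferon-regulated genes among the control pigs of 9 months, at 9.95 against 8.72 to 9.21. Over both high-fat chows, a comparison chosen after the values were seen, IL18 was lower in females by 0.96 on the log2 scale (-0.96, SE 0.28, adjusted p = 0.0306), a 1.95-fold difference, where 5.89% of all probe sets passed as lower in females. The change in its sex difference from time 0 to 9 months was 0.50 (SE 0.34, adjusted p = 0.407, 95% interval -0.21 to 1.21). The spike-in sets and the monocyte marker mean moved with sex on these diets. On the high-fat chows, set C held the female at 7.02 and the males at 8.14, 8.40 and 8.45, and set D held the females at 7.13, 7.15 and 7.21 and the male at 7.36. Over all diets the difference was -0.63 within set C (adjusted p = 0.717) and -0.25 within set D (adjusted p = 0.369), in fits with no term for diet. With the monocyte mean as a covariate the IL18 sex difference at 9 months was -0.54 (adjusted p = 0.582).

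IL1A had lower values in females than in males at time 0, short of the threshold, and spread widely within every group at 9 months. With probe set Ssc_113_1_S1_at the females of time 0 gave 8.32, 7.99, 7.67, 9.13 and 8.26 (pigs 6, 8, 10, 17 and 20), and the males 9.58, 9.13, 9.57, 9.80 and 9.35 (pigs 11, 12, 15, 24 and 25). Female 17 lay just below the lowest male and the other females further below, so the sexes did not overlap, as for 3.25% of all probe sets. The means were 8.27 ± 0.54 and 9.49 ± 0.26 (SD, n = 5 each), a difference of -1.21 (SE 0.45, adjusted p = 0.192, 95% interval -2.17 to -0.26), which would be 2.32-fold. The other probe set, by which the sexes overlapped, gave -1.09 (SE 0.43, adjusted p = 0.211). The 2 probe sets of IL1A ran together over the arrays (r 0.987), the first higher by 0.18 to 0.72 in log2 intensity.

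At 9 months IL1A was 8.42 and 9.88 in control females 18 and 8, and 8.35 and 9.02 in control males 16 and 25. It was 9.48 and 8.11 in high-fat females 27 and 30, and 9.79 and 8.75 in high-fat males 23 and 26. With resveratrol it was 10.22 and 7.92 in females 21 and 22, and 9.73 and 7.62 in males 4 and 5. The highest and the lowest value of the series both came from pigs given resveratrol, and each pair of pigs of 1 sex and diet differed by more than the sexes did. The sex difference at 9 months was 0.13 (SE 0.41, adjusted p = 0.904, 95% interval -0.74 to 1.00). The change from time 0 was -1.34 (SE 0.61, adjusted p = 0.197), opposite in sign to CASP1.

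IL1B, which encodes interleukin-1 beta, followed IL1A most closely of the 5905 other genes, with r 0.806 over 22 arrays and 0.973 for deviations from the means of the 8 groups of condition and sex. Its brightest probe set averaged 11.39 ± 0.54 in females and 12.48 ± 0.32 in males at time 0 (SD, n = 5 each), a difference of -1.09 (SE 0.49, adjusted p = 0.279). In the resveratrol group it was 12.49 and 9.63 in females 21 and 22 and 11.82 and 9.83 in males 4 and 5, so that female 21 and male 4 were high and the other pigs low in both genes.

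**Figure D5:**
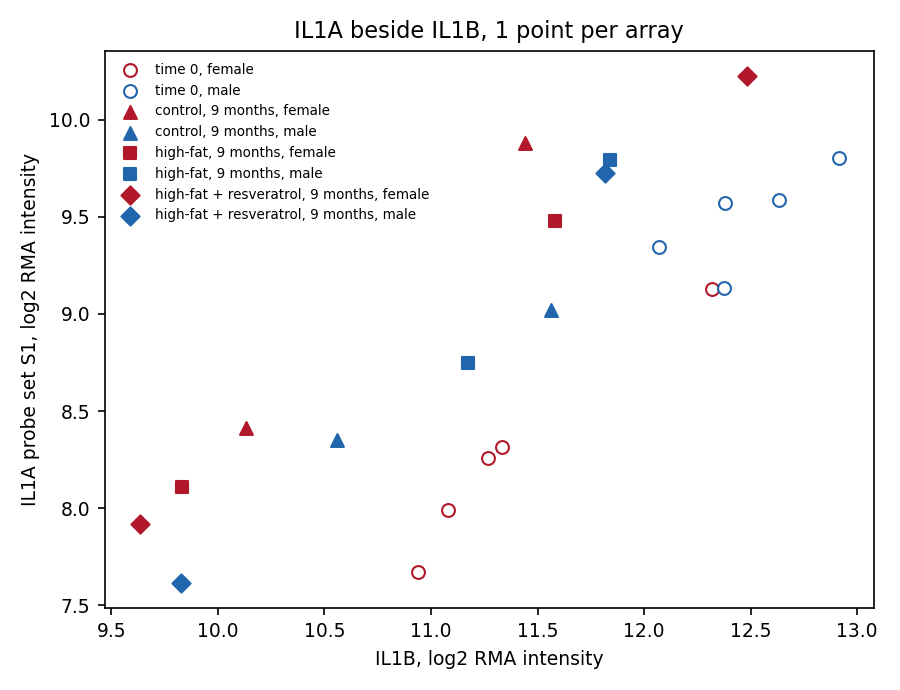
Log2 intensity of IL1A probe set Ssc_113_1_S1_at (y axis) beside that of IL1B (x axis), 1 point per array, females red, males blue, time 0 as open circles, control chow as triangles, high-fat chow as squares and resveratrol as diamonds. In each pair of pigs of 1 sex and diet at 9 months the pig higher in IL1A is also higher in IL1B, and pigs given resveratrol span 7.62 to 10.22 in IL1A.

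The high-fat chow was compared with control chow to find the effect of fat, and the resveratrol group with the high-fat group to find the effect of resveratrol. None of the 4 member probe sets passed in these comparisons, as for 0 of 17240 probe sets in each (0% called), and none of the 4 lay under an unadjusted p of 0.05 in limma, where 9.06% and 6.63% of all probe sets did. The count of 0 over all probe sets varied with the fit: high-fat minus control gave 68 with array weights, 18 with the 8 group means, 18 without control female 8 and 46 within set C, and resveratrol minus high-fat gave 23 within set C. No member was among them. With sex as an additive term, high-fat minus control was -0.24 for CASP1 (SE 0.53, 95% interval -1.34 to 0.85), 0.10 for IL18 (SE 0.32, -0.57 to 0.77) and 0.11 for IL1A (SE 0.54, -1.01 to 1.24). Resveratrol minus high-fat was 0.13 for CASP1 (SE 0.53, -0.96 to 1.22), 0.13 for IL18 (SE 0.32, -0.54 to 0.80) and -0.16 for IL1A (SE 0.54, -1.29 to 0.97). The adjusted p values lay between 0.94 and 0.984 for these 6 differences. Resveratrol minus control, where 0% of all probe sets passed and 3.85% lay under an unadjusted p of 0.05, was -0.11 for CASP1, 0.23 for IL18 and -0.05 for IL1A (adjusted p = 1 for each).

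The averages over the sexes held opposite values in CASP1. High-fat minus control was -1.05 in females (SE 0.39, adjusted p = 0.761) and 0.56 in males (SE 0.39, adjusted p = 0.442), and 0.0232% and 0.0290% of all probe sets passed. These shares moved with single pigs: the count of 4 probe sets in females was 27 without control female 18 and 0 without high-fat female 27 or 30. The count of 5 in males was 1663 without control male 25, 250 without high-fat male 26, 2 without control male 16 and 1 without high-fat male 23. The difference between the sexes in this effect was -1.61 (SE 0.54, adjusted p = 0.397), in a comparison where 1 of 17240 probe sets (0.00580%) passed, and 0 of the 4 members. For IL18 the values were -0.41 in females and 0.62 in males, and their difference -1.03 (SE 0.56, adjusted p = 0.45). The effect of resveratrol differed between the sexes by -0.24 for CASP1 (SE 0.54, adjusted p = 0.951) and by -0.46 for IL18 (SE 0.56, adjusted p = 0.904), where 0.0116% of all probe sets passed. On these diets 12 of 13 monocyte markers were lower with high-fat than with control chow, with a median of -0.47 and 0 passing. Of all 17240 probe sets, 8831 were lower. With the monocyte mean as a covariate, high-fat minus control was 0.90 for CASP1 (adjusted p = 0.313).

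Of the 55 genes measured on the interleukin-1, inflammasome and interferon lists, 0 passed in each comparison of diets. The smallest p of the inflammasome list belonged in both to GSDMD, at -0.43 for high-fat minus control (adjusted p = 0.326) and 0.36 for resveratrol minus high-fat (adjusted p = 0.728). These comparisons share the high-fat pigs. IL18BP, the secreted antagonist of interleukin-18, was at -0.35 (adjusted p = 0.504) and 0.19 (adjusted p = 0.873). IFNG, the interferon that interleukin-18 induces, was at 0.44 (adjusted p = 0.57) and -0.27 (adjusted p = 0.878). MYD88, the adaptor that both cytokine receptors use, was at -0.35 (adjusted p = 0.686) and 0.30 (adjusted p = 0.849), and IL1R1 at -0.16 (adjusted p = 0.834) and -0.10 (adjusted p = 0.948).

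Pigs on control chow at 9 months were compared with pigs at time 0. None of the 4 member probe sets passed, where 35.0% of all probe sets did and 44.5% lay under an unadjusted p of 0.05. CASP1 gave -0.37 (SE 0.44, adjusted p = 0.537, 95% interval -1.29 to 0.54), IL18 -0.57 (SE 0.27, adjusted p = 0.109) and IL1A 0.04 (SE 0.45, adjusted p = 0.959). By sex, CASP1 averaged 11.29 at time 0 and 10.38 on control chow in females, and 10.37 and 10.53 in males. The IL18 values were 7.56 to 8.85 with a median of 8.02 at time 0 and 6.96, 7.12, 7.46 and 8.22 on control chow. Control female 18 alone reached the time 0 range, and without it the difference was -0.90 (adjusted p = 0.0138), where 5322 of 17234 probe sets passed. With the monocyte mean as a covariate, which was itself 9.36 to 10.07 at time 0 and 9.78 to 10.16 on control chow, the differences were -1.21 for CASP1 (adjusted p = 0.00215) and -0.80 for IL18 (adjusted p = 0.0346). In that fit 5963 of 17240 probe sets passed.

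The 2 pigs measured at both times went different ways. In female 8 CASP1 went from 11.27 to 9.96, IL18 from 8.18 to 6.96 and IL1A from 7.99 to 9.88. In male 25 CASP1 went from 10.47 to 10.73, IL18 from 7.90 to 7.46 and IL1A from 9.35 to 9.02. The CASP1 and IL1A changes were thus opposite in sign in the 2 pigs, and with 1 pig of each sex there is no test.

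Around the members, 21 of the 55 pathway genes differed between control chow at 9 months and time 0, 9 higher and 12 lower. This share is near the 35.0% of all probe sets that passed, so the calls that follow describe single genes and not the pathway. All 3 receptors measured passed, in both directions: SIGIRR, an inhibitory receptor of the family, fell by 0.42 (adjusted p = 0.011), while IL1R1, the type 1 interleukin-1 receptor, rose by 0.73 (SE 0.14, adjusted p = 0.000425) and IL18R1, which binds interleukin-18, rose by 0.48 (SE 0.11, adjusted p = 0.00171). Of the ligands, IL1B gave -1.01 without passing (adjusted p = 0.091).

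Among the inflammasome genes SUGT1 fell by 1.07 (adjusted p = 0.0002) and CASP8 fell by 0.51 (adjusted p = 0.00549), while BRCC3 rose by 0.19 (adjusted p = 0.0282). Of the signalling genes UBE2V1, a partner of ubiquitin chain assembly, fell by 0.50, ECSIT fell by 0.38, and the kinase MAP3K7 fell by 0.37, while the ubiquitin ligase TRAF6 rose by 0.43 (adjusted p = 0.0278) and the kinase IRAK1 rose by 0.26 (adjusted p = 0.0394). NFKBIA, the inhibitor of NF-kB that NF-kB induces, rose by 0.50 (adjusted p = 0.00105). The executioner caspase CASP6 fell by 0.65, and FADD rose by 0.54. The calpain CAPN1, of the protease family that cuts the interleukin-1 alpha precursor, fell by 0.62 (adjusted p = 0.00409). Of the genes that interleukin-18 induces in lymphocytes IFNG fell by 0.52 (adjusted p = 0.0336), and FASLG, the Fas ligand, rose by 0.54 (adjusted p = 0.00983). The interferon-induced GTPases GBP1 and GBP2 fell by 1.07 and 0.74, and IRF2, a repressor of interferon responses, fell by 0.52, while IRF8 rose by 0.77 (adjusted p = 0.00135). SIGIRR, BRCC3, TRAF6, IRAK1 and IRF8 are named here after their values were seen, to give every gene of the lists that passed. On the same arrays 5 of 8 T cell markers and all 4 red cell markers passed as lower, where 3300 of 17240 probe sets did. The part of these cells in the changes was not tested.

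The members were related to each other and to the monocyte mean within each time, in 12 relations. At 9 months CASP1 and IL18 varied together over the 12 arrays (Pearson r 0.786, permutation p = 0.00202, 0.0204 after Benjamini-Hochberg adjustment; Spearman rho 0.699, permutation p = 0.0146, adjusted 0.0585). Without the 2 arrays farthest from the median of CASP1 the r was 0.793, for deviations from group means it was 0.665, and over the 7 arrays of set C it was 0.915. At time 0 the r of CASP1 and IL18 was 0.03 over 10 arrays (permutation p = 0.99). CASP1 followed the monocyte mean at 9 months (r 0.812, permutation p = 0.0034, adjusted 0.0204; rho 0.755, permutation p = 0.00614, adjusted 0.0408), and the r was 0.693 without the 2 farthest arrays and 0.321 for deviations from group means. At time 0 it was 0.720 (permutation p = 0.0166, adjusted 0.0664; rho 0.818, permutation p = 0.0068, adjusted 0.0408), 0.597 without the 2 farthest arrays and 0.753 for deviations. The remaining relations, which include each of IL1A with CASP1 and IL18, had adjusted permutation p of Pearson r from 0.155 to 0.976.

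The genes most like each member over the 22 arrays are given as a description, since all share the same arrays and their RNA. For CASP1 the 5 with the highest r were XAF1 (0.954), an interferon-induced gene of cell death, LOC641352, MX1, CYP2C91 and KYNU (0.916), the kynureninase of tryptophan breakdown. For deviations from group means they were LOC641352 (0.928), CYP2C91, XAF1, FCGR1A, the high-affinity receptor for IgG and 1 of the monocyte markers, and KMO (0.844), another enzyme of tryptophan breakdown. IL18 stood 370th of 5905 for CASP1, with r 0.617.

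For IL18 the nearest were SUDS3 (0.860), a part of a histone deacetylase complex, GLOD4, LOC100517166, UFC1 and the antiviral gene IFIT1 (0.801). By deviations they were ZBP1 (0.842), a sensor of nucleic acids, the myeloid receptor TREM1, AP2B1, RUVBL1 and UBFD1 (0.818), so the 2 lists shared no gene. For IL1A they were IL1B, the Notch ligand JAG1 (0.805), the caspase-8 regulator CFLAR, the growth factor AREG and PTGS2 (0.711), the inducible cyclooxygenase. By deviations they were IL1B, SERPINB2 (0.829), an inhibitor of plasminogen activators, PTGS2, JAG1 and AREG (0.752), so 4 of the 5 were shared.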

How the data were processed

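RNA of blood mononuclear cells, separated on a density gradient per the labels' protocols, was labelled and hybridised to Affymetrix porcine arrays, 1 per sample (22). Per the submitters' processing notes, the tools were Affymetrix Expression Console 1.1, GCOS and RMA. Values were deposited as the authors' RMA intensities on a linear scale, and 0 other columns of per-sample values were left unused. RMA had already corrected background and equalised the arrays, which can hide a shift common to all genes. Here the log2 of each intensity was taken (floor 1, reached by 0 values), and 124 control probe sets were set aside.

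The 17240 probe sets above 5 on at least 2 arrays (71.8%) were fitted with limma 3.58.1 in R 4.3.3 (statmod 1.5.0), two-sided, with Benjamini-Hochberg adjustment over all of them and a threshold of 0.05. Times and diets used condition plus sex over all 22 arrays. Sexes and interactions used 8 group means. The number of arrays limits the precision. Replicates are pigs. Genes of lists were taken by their brightest probe set. The genes to name were all members, pathway genes past the threshold for times, diets and sexes (at most 10 by p), the 2 smallest p per list for times and diets, of which the diet genes are given in part, and the 5 genes most like each member. Correlations used 100000 permutations (scipy). Arrays were parted into spike-in sets at the largest gap in poly-A level within each time. Alternatives changed the filter, scaling, offset, array weights, pig block, spike-in set, monocyte covariate and each single array. Scripts were tested on simulated data. The members and lists were chosen with earlier results of these data known. Array annotation supplied the gene names, and no sequences were used here.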

Additional observations from a re-analysis of the deposited data

Results flagged for a closer look

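For CASP1 the sex difference at time 0 differed from that at 9 months by 2.23 in log2 intensity (adjusted p = 0.00254), with females higher on average at the first time and lower at the second. The difference at time 0 missed the threshold by itself (0.93, adjusted p = 0.0721). On control chow at 9 months it was -0.15 (adjusted p = 0.952). Single arrays were also compared with the rest of their condition, in 24 groups, where chance alone marks about 1 in 20. IL18 of time 0 female 10 was 8.85, far above the next array, with a gap of 0.519 of the whole range. IL18 of high-fat male 23 was 8.45, against 7.15 to 7.36 in the other 3 pigs of its diet, a gap of 0.835 of the range.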

How the results depend on the processing

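Of 791 alternative values for 35 results, 83 changed sign, 0 of them past the threshold, and 46 of these left out 1 array; the cause was not tested. With array weights, IL1A was -0.060 for control chow over time, -0.055 for high-fat minus control, 0.32 for resveratrol minus high-fat and 0.27 for resveratrol minus control, IL18 was -0.14 for high-fat and -0.084 for resveratrol minus control, and CASP1 was -0.20 for resveratrol minus high-fat. With the spike-in set as a block, high-fat minus control was -0.080 for IL1A and 0.11 for CASP1, and resveratrol minus high-fat was 0.034 for IL1A, -0.22 for CASP1 and -0.15 for IL18. Within set C, CASP1 was 0.72 for high-fat minus control, -0.35 for resveratrol minus high-fat and 0.37 for resveratrol minus control, IL18 was -0.60 for resveratrol minus high-fat, and the sex difference at 9 months was -0.13 and -0.15 for the IL1A probe sets and -0.93 for CASP1, with 0 members called among fewer arrays. Within set D, high-fat minus control was -0.24 for IL1A and -0.22 for IL18, resveratrol minus high-fat was 1.45 for IL1A, -0.11 for IL18 and -0.75 for CASP1, and resveratrol minus control was 1.20 for IL1A and -0.33 for IL18. With the monocyte mean as a covariate, the second IL1A probe set was 0.12 over time and IL1A was -0.25 for high-fat minus control. In the same fit CASP1 was 0.90, -0.29 and 0.61 in the comparisons of diets and -0.64 for the sexes at 9 months. It was 0.39 for the resveratrol effect between sexes and 1.36 for the change in sex difference. Over time 2 members were called, where 5963 of 17240 probe sets passed. For the sexes at 9 months 0 members were called, where 21 probe sets passed, and for the change 0, where 116 passed. The mean of the IL1A probe sets was -0.046 over time. In comparisons chosen after the values were seen, the sex difference on control chow was -0.15 for CASP1 and 0.30 for IL18, on high-fat chow -1.76 for CASP1 and -0.48 and -0.60 for the IL1A probe sets, and on both high-fat chows -0.040 and -0.017 for the latter. Leaving out 1 array at a time, the IL1A probe sets ran from -0.39 to 0.32 and from -0.51 to 0.13 over time, and from -0.26 to 0.51 and from -0.25 to 0.47 for the sexes at 9 months. The sex difference at time 0 ran from 0.79 to 1.20 for CASP1 and from -0.26 to 0.065 for IL18. High-fat minus control ran from -0.17 to 0.54 for IL1A, -0.51 to 0.035 for CASP1 and -0.16 to 0.44 for IL18, and from -1.04 to 0.22 for IL18 in females. Resveratrol minus high-fat ran from -0.73 to 0.37 for IL1A, -0.24 to 0.49 for CASP1 and -0.070 to 0.40 for IL18, and resveratrol minus control from -0.61 to 0.48 for IL1A and -0.48 to 0.25 for CASP1. The resveratrol effect between sexes ran from -0.28 to 2.03 for IL1A and from -1.01 to 0.083 for IL18. Members called ran from 0 to 1 over time (1 without control female 18, where 5322 of 17234 probe sets passed). For the sexes at time 0 they ran from 0 to 1 (1 without male 24, where 136 of 17228 probe sets passed). At 9 months the IL18 sex difference was -0.75 without control female 18. With the pig as a replicate block (consensus correlation -0.18), the change in the CASP1 sex difference was 2.23, and no call on a member moved; only pigs 8 and 25 are shared between groups. With 2 pigs of each sex on a diet, differences within a diet have wide intervals.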
